A study of Mus musculus with 6 samples.

Results

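The genes described here are the ligands and receptors of vascular endothelial growth factor (VEGF) in mouse Mvt1 cells. They were chosen by name: the ligands Vegfa, Vegfb, Vegfc, Figf and Pgf, the receptors Flt1, Kdr and Flt4, and the co-receptors Nrp1 and Nrp2, that is 10 of 15017 gene annotations with reads. All 10 had reads in at least 1 library, and 8 of them passed the filter on low counts that left 11198 genes for the test. Kdr and Flt4 did not pass it.

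VEGF ligands are secreted dimers that bind receptor tyrosine kinases. VEGF-A, made from Vegfa, binds FLT1 and KDR, and KDR carries most of its signal in endothelial cells, while VEGF-B and placental growth factor, made from Vegfb and Pgf, bind FLT1 only. VEGF-C and VEGF-D, made from Vegfc and Figf, act through FLT4 on lymphatic vessels, and VEGF-C, once processed by proteases, also through KDR. Neuropilins 1 and 2, made from Nrp1 and Nrp2, have no kinase of their own. They bind VEGF ligands together with the receptors, and they are also receptors of class 3 semaphorins.

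Mvt1 is a mammary carcinoma cell line from FVB/N mice that carried Myc and Vegf transgenes. Cells were stained for the surface protein CD24 and sorted by flow cytometry into CD24- and CD24+ cells, which were then grown as adherent cultures without any further treatment. RNA came from 3 plates of CD24- cells and 3 plates of CD24+ cells, and each plate gave 1 library, called here replicate 1, 2 or 3 of its group. All libraries came from 1 cell line and no separate sorts are described, so p-values here measure the spread between plates, and an effect of CD24 cannot be told apart from any other difference between the sorted groups. In bulk RNA, more cells that make a transcript and more transcript per cell cannot be told apart either.

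Each library held 9046025 to 25692147 mapped reads, of which 72.0% to 74.6% were annotated to a gene. CD24+ replicate 1 was the shallowest library, with 6516293 gene reads, and CD24+ replicate 3 the deepest, with 19154310. Levels are given as counts per 1000000 gene reads of a library (CPM), scaled between libraries,, and differences as log2 fold changes of CD24+ over CD24- cells. Cd24a, the gene of the sorted protein, had 12.0, 11.4 and 6.96 CPM in CD24- replicates 1, 2 and 3 and 73.2, 85.3 and 72.3 CPM in CD24+ replicates 1, 2 and 3. The epithelial keratin gene Krt18 was abundant, at 730 ± 35.5 CPM against 212.7 ± 17.1 CPM (CD24- and CD24+ means, SD, n = 3 each), but the epithelial genes Cdh1 and Epcam, named after their values were seen, had only 2 and 6 reads in all 6 libraries.

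Between CD24- and CD24+ cells, 5 of the 8 tested genes passed the threshold of an adjusted p below 0.05 (edgeR's quasi-likelihood test, Benjamini-Hochberg correction across all tested genes). Vegfa, Vegfc, Pgf and Nrp2 were higher in CD24+ cells and Flt1 was lower. Over all genes tested, 46.1% passed the same threshold, 23.8% higher and 22.3% lower in CD24+ cells, so the count of 5 by itself is no result about these genes. The median log2 fold change was 0.48 over the 8 tested genes and 0.02 over all genes tested. The libraries of the 2 groups did not overlap in level for 4 of the 8 tested genes, against 57.3% of all genes tested.

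**Figure D1:**
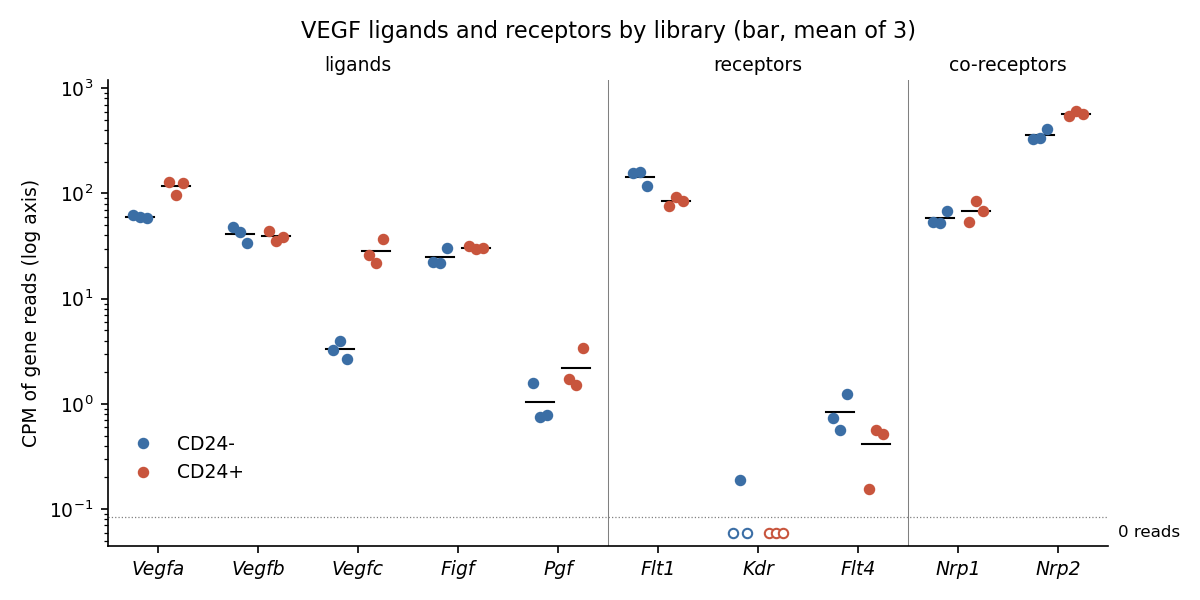
Level of each VEGF ligand, receptor and co-receptor in each library, as CPM of gene reads on a log axis, with 3 points for CD24- (blue) and 3 for CD24+ (red) libraries and a bar at the mean of 3. Open points mark libraries with 0 reads. Vegfa, Vegfc and Nrp2 lie higher in all CD24+ libraries, Flt1 lies lower, and Kdr has reads in 1 library only.

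Among the ligands, Vegfc differed most between the groups. Vegfc (chr8:54077606-54187096, GRCm38, plus strand) codes for VEGF-C, the main growth factor of lymphatic vessels. It had 3.25, 3.97 and 2.70 CPM in CD24- replicates 1, 2 and 3, from 31, 42 and 24 reads. In CD24+ replicates 1, 2 and 3 it had 26.2, 22.1 and 37.2 CPM, from 167, 392 and 711 reads. The groups did not overlap, and the lowest CD24+ library held 5.57 times the level of the highest CD24- library. The means were 3.30 ± 0.637 CPM and 28.5 ± 7.79 CPM (SD, n = 3 each), an 8.59-fold difference with a log2 fold change of 3.10 (SE 0.24, Benjamini-Hochberg adjusted p = 3.51e-06, edgeR). An exact permutation test of 3 libraries against 3 gave p = 0.1 (two-sided), the smallest value that this design allows.

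Vegfa (chr17:46016993-46032369, GRCm38, minus strand) codes for VEGF-A, the ligand that drives the growth of blood vessels. Its levels were 62.6, 60.1 and 58.5 CPM in CD24- replicates 1, 2 and 3 and 128, 97.3 and 126 CPM in CD24+ replicates 1, 2 and 3. Every CD24+ library was above every CD24- library, and CD24+ replicate 2 was the lowest of its group. The mean rose from 60.4 ± 2.08 to 117 ± 17.3 CPM (SD, n = 3 each), a 1.93-fold difference with a log2 fold change of 0.95 (SE 0.11, Benjamini-Hochberg adjusted p = 6.64e-05, edgeR).

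The other ligands differed less or rested on few reads. Vegfb (chr19:6982473-6987651, GRCm38, minus strand), whose product binds FLT1, had 48.4, 42.8 and 33.6 CPM in CD24- and 44.4, 35.7 and 38.7 CPM in CD24+ replicates 1, 2 and 3. The groups overlapped, and the log2 fold change of -0.08 had a 95% interval from -0.39 to 0.22 (Benjamini-Hochberg adjusted p = 0.644, edgeR), so a difference larger than this interval is not seen at this depth. Figf, the older symbol of Vegfd (chrX:164373378-164402650, GRCm38, plus strand), had 22.4, 21.8 and 30.4 CPM in CD24- and 31.4, 29.9 and 30.2 CPM in CD24+ replicates. CD24- replicate 3 lay within the range of the CD24+ libraries, and the log2 fold change of 0.29 (95% interval -0.004 to 0.59) missed the threshold (Benjamini-Hochberg adjusted p = 0.0971, edgeR). Without CD24- replicate 3 it was 0.46 and passed, with an adjusted p of 0.00406 by edgeR. Reads that matched no annotated transcript were 36.4%, 28.6% and 36.9% of Figf reads in CD24- and 17.5%, 28.4% and 27.5% in CD24+ replicates. On the reference transcript alone, Figf had 8.19, 8.86 and 11.1 against 14.998, 12.3 and 12.6 CPM per kb of read start positions. These levels did not overlap and were not tested themselves, so the overlap above depended on reads outside the transcript. A near setting, which counted only reads that match transcripts of a single GENCODE gene, was tested. There Figf gave 0.46 and passed (Benjamini-Hochberg adjusted p = 0.0192, edgeR).

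Pgf (chr12:85166635-85177790, GRCm38, minus strand), the gene of placental growth factor, had 15, 8 and 7 reads in CD24- and 11, 27 and 65 reads in CD24+ replicates 1, 2 and 3. These are 1.57, 0.755 and 0.786 CPM against 1.73, 1.52 and 3.40 CPM, where CD24- replicate 1 lay between CD24+ replicates 2 and 1. Its log2 fold change of 1.15 (SE 0.43) passed the threshold narrowly, with an adjusted p of 0.0488 by edgeR after Benjamini-Hochberg correction. Without CD24+ replicate 3 it was 0.60 with an adjusted p of 0.291 by edgeR, and DESeq2 on all libraries gave an adjusted p of 0.0865. It also missed the threshold without CD24- replicate 2 (adjusted p = 0.156, edgeR), CD24- replicate 3 (0.108) or CD24+ replicate 1 (0.0666).

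Since the line comes from tumours with a Vegf transgene, Vegfa reads were placed on the parts of its transcripts. A transgene made from mouse coding sequence would add reads to the coding exons and not to the untranslated regions of the gene. Which sequence the transgene holds is not known here. One that differs from the mouse gene would add few exact matches, so these reads could not show it. The counts used here hold only reads that match the genome without a mismatch, and none across exon junctions or over a variant. A coding read therefore cannot be assigned to the transgene or to the gene itself. Densities are given as CPM per kb of positions at which a read without a mismatch or junction can start. The coding part shared by the isoforms had 36.3, 35.5 and 32.3 CPM per kb in CD24- and 83.5, 53.3 and 78.8 CPM per kb in CD24+ replicates 1, 2 and 3. Of its 205 start positions 151 lie in exon 3, so this part and exon 3 below rest mostly on the same reads. The 3' untranslated region had 16.3, 16.4 and 15.6 CPM per kb in CD24- and 41.8, 28.1 and 37.1 CPM per kb in CD24+ replicates. Reads therefore lay on both parts in every library, and neither part overlapped between the groups.

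Both parts rose in CD24+ cells. The log2 fold change was 1.03 (SE 0.19, adjusted p = 0.00151) for the coding part and 1.14 (SE 0.14, adjusted p = 8.8e-05) for the 3' untranslated region, each added as a further row of the edgeR fit (Benjamini-Hochberg). The 5' untranslated region gave 0.92 (SE 0.17, adjusted p = 0.00158, same fit). The ratio of coding to 3' untranslated density was 2.23, 2.17 and 2.08 in CD24- and 1.998, 1.90 and 2.12 in CD24+ replicates. These ratios overlapped and differed by -0.11 on the log2 scale (exact permutation test, two-sided, p = 0.2, and 0.3 after Benjamini-Hochberg adjustment over 6 ratios of this kind). The same ratio, taken over the reference transcript of each gene, was 1.92 to 2.16 over the 6 libraries for Vegfa, 1.62 to 1.81 for Nrp2, 2.79 to 3.12 for Flt1, 3.10 to 5.71 for Vegfc and 1.79 to 4.67 for Figf. It was 0.768 to 1.07 for Vegfb, 0.940 to 1.30 for Nrp1 and, with only 13 coding reads in all, 0 to 1.29 for Pgf. Vegfa lay above Vegfb, Nrp1, Pgf and Nrp2, below Flt1 and Vegfc, and within the range of Figf. Reads inside the gene that matched no annotated transcript were 23.6%, 21.5% and 22.6% of Vegfa reads in CD24- and 12.0%, 19.2% and 18.3% in CD24+ replicates. These shares were lower in all CD24+ libraries, a difference chosen after the data were seen and not tested.

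Isoforms of VEGF-A differ in exons 6 and 7. Exon 7 codes for the part of the longer isoforms that binds heparin and neuropilins and is left out of the short, freely diffusing isoform, and exon 6 is found only in the longest isoforms. Exon 7 is printed here from the GENCODE transcript because its reads, unlike those of the shared exon 3, did not pass the test between the groups (GRCm38, chr17:46020991-46021122, minus strand, 132 bases).
Vegfa exon 7: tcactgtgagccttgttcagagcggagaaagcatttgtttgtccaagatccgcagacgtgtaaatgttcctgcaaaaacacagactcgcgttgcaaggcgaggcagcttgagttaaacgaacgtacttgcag
Exon 7 had 25, 21 and 27 reads in CD24- and 9, 50 and 61 reads in CD24+ replicates 1, 2 and 3, which are 30.4, 23.1 and 35.3 against 16.4, 32.7 and 37.1 CPM per kb. The groups overlapped, and the log2 fold change was 0.07 (SE 0.30, Benjamini-Hochberg adjusted p = 0.862, edgeR). Exon 3, which all isoforms share, had 36.1, 39.4 and 34.2 against 85.2, 54.1 and 77.2 CPM per kb, with a log2 fold change of 0.95 (SE 0.20, adjusted p = 0.00322, same fit). The ratio of exon 7 to exon 3 was 0.844, 0.585 and 1.03 in CD24- and 0.193, 0.605 and 0.480 in CD24+ replicates. These ratios overlapped, and their difference of -1.06 on the log2 scale stood against SDs of 0.41 among CD24- and 0.87 among CD24+ libraries (exact permutation test, two-sided, p = 0.2, adjusted over 6 ratios 0.3). Without CD24+ replicate 1 it was -0.57. Exon 6 had 0 reads in every CD24- library and 1, 2 and 0 reads in CD24+ replicates, over only 26 positions, and counting error alone allows up to 3 reads where 0 were seen.

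**Figure D2:**
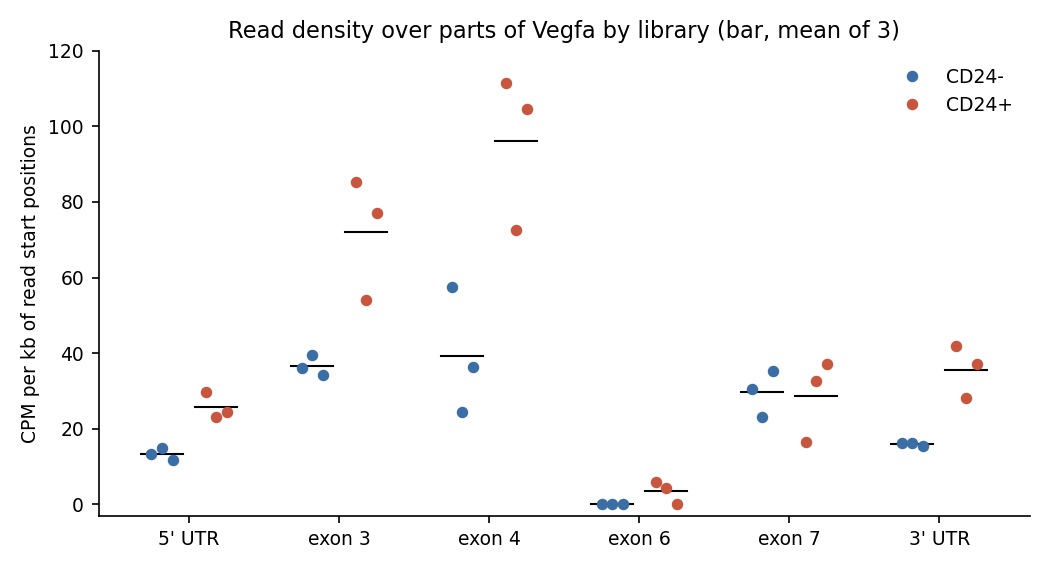
Read density over parts of Vegfa, as CPM per kb of read start positions, with 3 points for CD24- (blue) and 3 for CD24+ (red) libraries and a bar at the mean of 3. The CD24+ libraries lie higher over the 5' untranslated region, exons 3 and 4 and the 3' untranslated region, while the groups overlap over exon 7, and exon 6 has 3 reads in all.

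Among the receptors, Flt1 carried nearly all reads. Flt1 (chr5:147561604-147726011, GRCm38, minus strand) codes for VEGF receptor 1, which binds VEGF-A strongly but signals weakly. It had 156, 161 and 118 CPM in CD24- and 76.0, 91.7 and 84.7 CPM in CD24+ replicates 1, 2 and 3. All CD24+ libraries lay below all CD24- libraries. The mean fell from 145 ± 23.5 to 84.1 ± 7.87 CPM (SD, n = 3 each), and the log2 fold change was -0.78 (SE 0.12, Benjamini-Hochberg adjusted p = 5.2e-04, edgeR), so the level was 1.72 times higher in CD24- cells.

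Kdr and Flt4, the receptors that signal in endothelial cells, were close to the limit of detection. Kdr (chr5:75932827-75978458, GRCm38, minus strand) had 2 reads, both in CD24- replicate 2, and 0 reads in the CD24+ libraries, which allows up to 0.0693 CPM over that group (3 reads of its total, counting error only). Flt4 (chr11:49609263-49652739, GRCm38, plus strand) had 7, 6 and 11 reads in CD24- and 1, 10 and 10 reads in CD24+ replicates, and all 10 reads of CD24+ replicate 3 and the only read of CD24+ replicate 1 matched no annotated transcript of the gene. Fitted without a filter on low counts, Flt4 had a log2 fold change of -0.79 (SE 0.53, Benjamini-Hochberg adjusted p = 0.263, edgeR).

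Flt1 makes 2 main products. The full-length receptor spans the membrane and has 30 exons, and a soluble receptor, which binds and traps VEGF, ends after exon 13 by reading on into the next intron. The coding end of the soluble form is printed here because it is what sets its transcript apart from the full-length one (GRCm38, chr5:147639130-147639224, minus strand, 95 bases, stop codon in capitals).
Flt1 soluble end: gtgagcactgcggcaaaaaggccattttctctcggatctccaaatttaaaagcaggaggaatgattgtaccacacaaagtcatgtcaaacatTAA
Exons 1 to 13, which both forms share, had 34.6, 37.5 and 27.6 CPM per kb in CD24- and 17.7, 19.6 and 17.8 CPM per kb in CD24+ replicates 1, 2 and 3. The coding part of exons 14 to 30 had 18.5, 17.1 and 13.9 against 6.16, 9.66 and 8.38 CPM per kb. Density thus dropped after exon 13 in every library, by a factor of 1.88 to 2.87. The tail of the soluble form, with its untranslated region, had 8.75, 9.09 and 5.84 CPM per kb in CD24- and 5.43, 6.15 and 6.36 CPM per kb in CD24+ replicates.

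Both the shared exons and those of the full-length receptor fell in CD24+ cells. The log2 fold change was -0.85 (SE 0.12, adjusted p = 2.54e-04) for exons 1 to 13 and -0.99 (SE 0.17, adjusted p = 9.69e-04) for the coding part of exons 14 to 30 (edgeR, Benjamini-Hochberg). The soluble tail gave -0.39 (SE 0.16, adjusted p = 0.0669, same fit), with overlapping groups. The ratio of the soluble tail to exons 14 to 30 was 0.474, 0.532 and 0.421 in CD24- and 0.881, 0.637 and 0.759 in CD24+ replicates. It was higher in all CD24+ libraries, by 0.67 on the log2 scale, and the exact permutation test gave the smallest p that 3 against 3 allow (two-sided, p = 0.1, adjusted over 6 ratios 0.3). This ratio was chosen after the data were seen, so its p is no independent support. The ratio of exons 1 to 13 to exons 14 to 30 was 1.88, 2.19 and 1.99 against 2.87, 2.03 and 2.12, which overlapped (exact permutation test, two-sided, p = 0.4). Flt1 reads outside all annotated transcripts came to 2.66 per kb of the gene over the 6 libraries, against 497 per kb in the tail. Only reads annotated to Flt1 are in this count. Intron reads labelled as repeats or left without annotation are not, so the density outside transcripts may be higher.

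**Figure D3:**
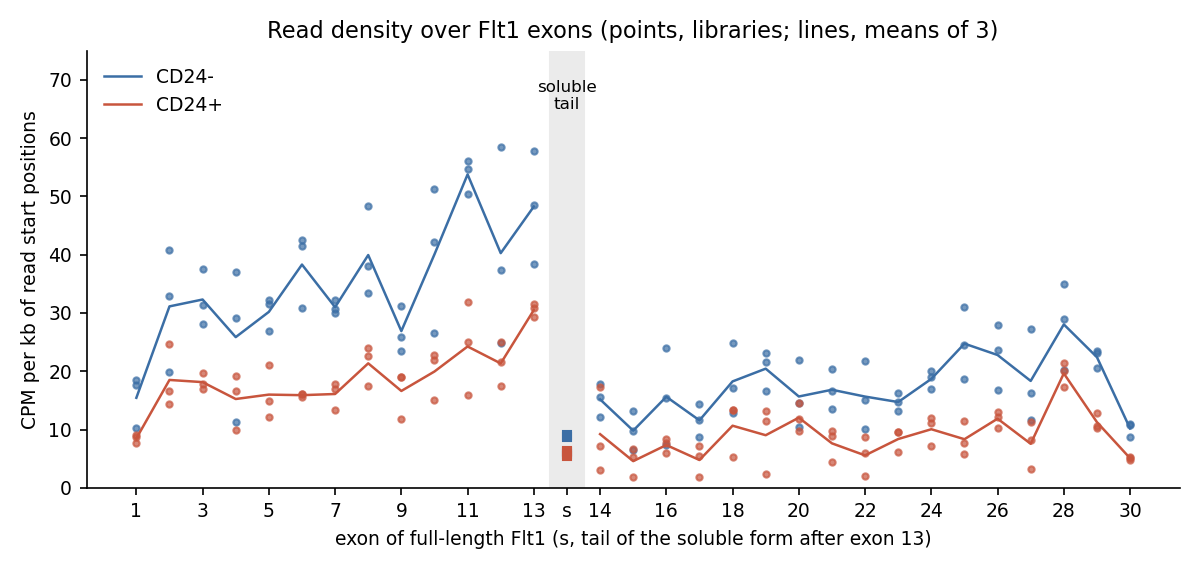
Read density over the exons of full-length Flt1 and, in the grey band, over the tail of the soluble form, as CPM per kb of read start positions. Points are libraries and lines the means of 3 CD24- (blue) and 3 CD24+ (red) libraries, and density drops after exon 13 in both groups.

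Nrp2 had the highest level of the 10 genes in every library. Nrp2 (chr1:62703285-62818695, GRCm38, plus strand) codes for neuropilin 2, the co-receptor that binds VEGF-C and VEGF-D as well as VEGF-A. It had 331, 338 and 407 CPM in CD24- and 547, 603 and 568 CPM in CD24+ replicates 1, 2 and 3. The groups did not overlap. The mean rose from 359 ± 42.3 to 572 ± 28.2 CPM (SD, n = 3 each), a 1.60-fold difference with a log2 fold change of 0.68 (SE 0.10, Benjamini-Hochberg adjusted p = 2.72e-04, edgeR). Nrp1 (chr8:128358604-128503363, GRCm38, plus strand), the neuropilin that binds VEGF-A, had 53.3, 52.7 and 68.3 CPM in CD24- and 54.2, 84.3 and 67.8 CPM in CD24+ replicates. Its groups overlapped, and the log2 fold change was 0.26 (95% interval -0.09 to 0.61, Benjamini-Hochberg adjusted p = 0.202, edgeR). It was 0.08 without CD24+ replicate 2 and 0.39 without CD24- replicate 3, and did not pass the threshold without any one library.

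Neuropilin 2 has alternative ends, called a and b, which share the part outside the cell and differ in the stretch through and behind the membrane. The last 120 coding bases of each are printed to show that they are separate exons with separate reads (GRCm38, plus strand, chr1:62815518-62815637 for a and chr1:62795870-62795989 for b, stop codons in capitals).
Nrp2 a end: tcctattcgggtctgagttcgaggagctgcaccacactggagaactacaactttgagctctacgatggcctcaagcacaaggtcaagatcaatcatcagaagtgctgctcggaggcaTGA
Nrp2 b end: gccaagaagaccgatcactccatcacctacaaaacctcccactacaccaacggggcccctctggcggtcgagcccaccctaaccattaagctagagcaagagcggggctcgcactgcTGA
The last exon of the a form had 39.6, 38.7 and 47.2 CPM per kb in CD24- and 62.7, 65.8 and 64.3 CPM per kb in CD24+ replicates 1, 2 and 3. The last exon of the b form had 9.56, 8.99 and 12.9 against 22.2, 24.1 and 22.1 CPM per kb. The a end was thus the more abundant one in every library, and both ends were higher in all CD24+ libraries. The log2 fold change was 0.63 (SE 0.09) for exons 1 to 14, 0.62 (SE 0.09) for the a end and 1.12 (SE 0.13) for the b end. Their adjusted p-values were 3.03e-04, 3.13e-04 and 5.85e-05 (edgeR, Benjamini-Hochberg).

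The ratio of the b end to the a end was 0.241, 0.233 and 0.273 in CD24- and 0.354, 0.366 and 0.344 in CD24+ replicates. The groups did not overlap, and the ratio was higher in CD24+ cells by 0.51 on the log2 scale, 0.249 ± 0.0214 against 0.355 ± 0.0111 (SD, n = 3 each, exact permutation test, two-sided, p = 0.1, the smallest possible, adjusted over 6 ratios 0.3). This ratio too was chosen after the data were seen. Nrp2 reads outside all annotated transcripts came to 11.0 per kb of the gene over the 6 libraries, against 1293 per kb in the b end. This count too holds only reads annotated to the gene.

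**Figure D4:**
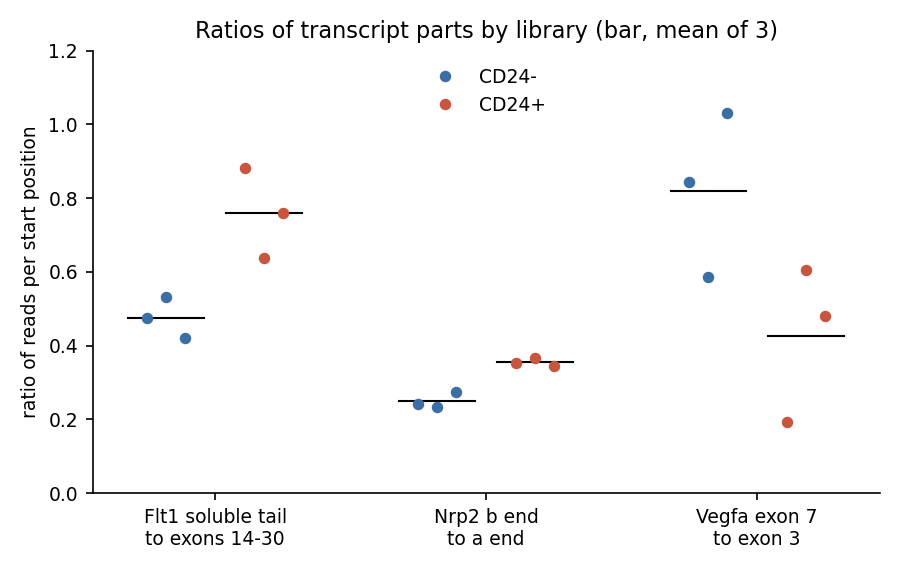
Ratio of read density between transcript parts of Flt1, Nrp2 and Vegfa in each library, with 3 points for CD24- (blue) and 3 for CD24+ (red) libraries and a bar at the mean of 3. The groups are apart for Flt1 and Nrp2, both higher in CD24+ libraries, and overlap for Vegfa.

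**Figure D5:**
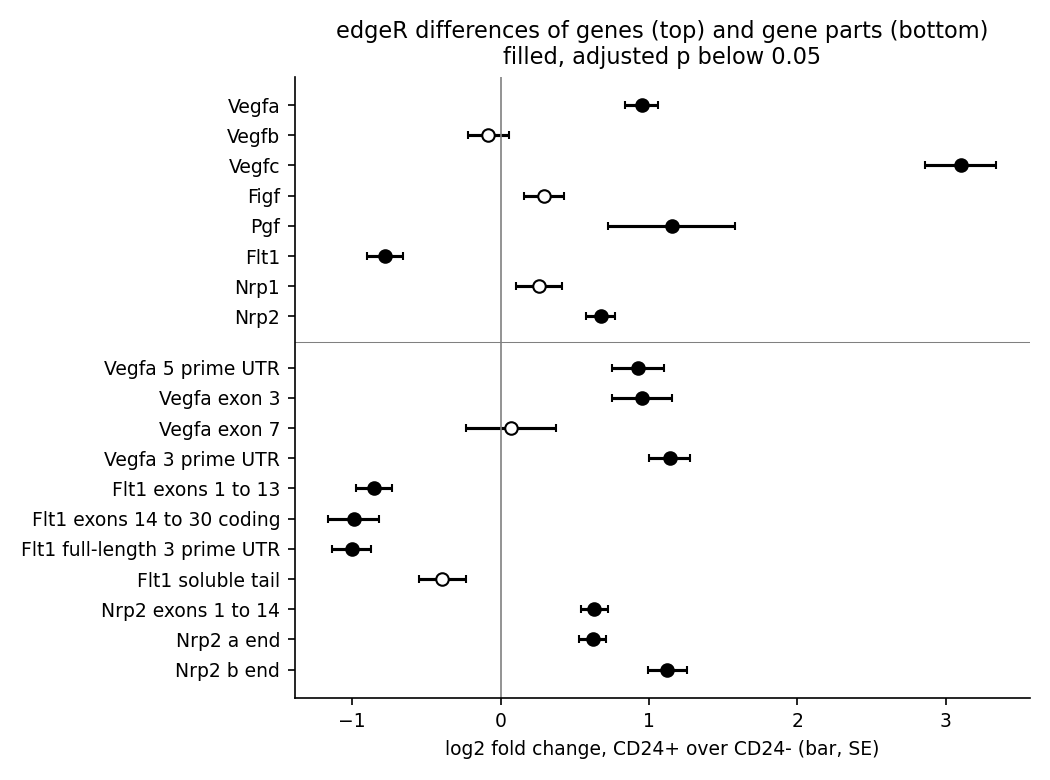
Log2 fold change of CD24+ over CD24- cells with its SE from edgeR, for the 8 tested genes (top) and for parts of Vegfa, Flt1 and Nrp2 (bottom). Filled points passed an adjusted p below 0.05, and Vegfc has the largest difference at 3.10.

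Levels of different genes were compared per kb of read start positions on the reference transcript. In CD24- cells the order was Nrp2 (50.6 CPM per kb), Vegfb (39.5), Nrp1 (19.5), Flt1 (18.5), Vegfa (17.3), Figf (9.37), Vegfc (1.34), Pgf (0.731), Flt4 (0.166) and Kdr (0.0139). The ranges over libraries overlapped between Nrp1 and Flt1, between Flt1 and Vegfa and between Vegfc and Pgf, and not between the other neighbours. In CD24+ cells it was Nrp2 (78.1 CPM per kb), Vegfb (38.3), Vegfa (37.2), Nrp1 (23.01), Figf (13.3), Vegfc (11.2), Flt1 (9.77), Pgf (1.46), Flt4 (0.0231) and Kdr (0). Here the ranges overlapped between Vegfb and Vegfa, among neighbours from Figf to Flt1 and between Flt4 and Kdr. Vegfa thus stood at rank 5 in CD24- cells and rank 3 in CD24+ cells, and Flt1 at ranks 4 and 7.

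The genes most like Vegfa over the 6 libraries, by the root mean square distance of their centred log2 CPM, were Ifngr2 (0.0634), Katnal1 (0.0674) and Hap1 (0.0684). Those most like Nrp2 were Crnkl1 (0.0462), Zbtb48 (0.0489) and Exoc3 (0.0491).

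Lists of genes that act with the VEGF family were read from the same fit. Beside the largest change in each direction (mean log2 CPM of 3 or more), genes of these lists are named after their values were seen. Of 17 genes that process or hold VEGF ligands, 13 were tested, 5 rose, 1 fell, and the median log2 fold change was 0.32. The share that passed, 46.2%, was that of all genes tested (46.1%). Thbs1, the gene of thrombospondin 1, a matrix protein that inhibits vessel growth, rose from 193 ± 5.70 to 507 ± 132 CPM (SD, n = 3 each, log2 fold change 1.40). Ccbe1, needed with the protease ADAMTS3 to process VEGF-C, rose with a log2 fold change of 0.93 (SE 0.28), while Adamts3 itself gave -0.19 and did not pass. The groups overlapped for Ccbe1, with 16.6 CPM in CD24+ replicate 1 and 18.3 CPM in CD24- replicate 3. Sparc, Mmp2 and Hpse also rose, with 0.75, 1.83 and 2.39. Mmp2 and Hpse rested on few reads, 71 and 98 in all libraries, with CD24+ means of 1.35 and 2.07 CPM. Both lay below 1 CPM in every CD24- library and passed the filter on low counts only through the CD24+ libraries. Their direction was thus largely set by the filter. Mmp3, the gene of a matrix protease, fell from 300 ± 50.2 to 29.3 ± 5.12 CPM (log2 fold change -3.38).

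Among 14 genes of oxygen sensing, the pathway that switches on Vegfa in low oxygen, 12 were tested, 5 rose and 0 fell by edgeR, while 4 rose and 0 fell by DESeq2 (also 0 lower at an unadjusted p below 0.05 by edgeR), and the median log2 fold change was 0.14. The share that passed was 41.7%, against 46.1% of all genes tested. Epas1, the gene of HIF-2α, rose from 11.9 ± 3.05 to 22.7 ± 3.02 CPM (SD, n = 3 each, log2 fold change 0.94), while Hif1a gave -0.10 and did not pass. Egln1 (0.36), Egln3 (0.30), Tceb2 (0.43) and Rbx1 (0.25) rose less, and they code for enzymes that mark HIF for destruction or for parts of the complexes that carry it out. The count was 3 without any one of the CD24+ libraries.

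Downstream of the receptors, 53 of 56 genes were tested, 11 rose and 7 fell, with a median log2 fold change of 0.07. That is 34.0% of those tested, against 46.1% of all genes. Sphk1, the gene of a sphingosine kinase, rose from 2.81 ± 0.181 to 33.3 ± 3.42 CPM (SD, n = 3 each, log2 fold change 3.55).

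Most class 3 semaphorins share the neuropilins with VEGF, and plexins carry their signal. Of 12 such genes 9 were tested, 4 rose and 3 fell, with a median log2 fold change of 0.27. That is 77.8% of those tested, against 46.1% of all genes. All 4 that rose were semaphorin ligands, Sema3c (4.78), Sema3e (3.85), Sema3a (3.49) and Sema3d (3.03), and Sema3c went from 2.57 ± 0.433 to 70.6 ± 14.2 CPM (SD, n = 3 each). The other ligand tested, Sema3f, gave -0.09 and did not pass. All 3 that fell were plexins, Plxna2 (-1.14), Plxna3 (-0.72) and Plxna1 (-0.32), and Plxna2 went from 89.2 ± 9.72 to 40.4 ± 4.41 CPM. The other plexin tested, Plxnd1, gave 0.27 and did not pass, with 65.9 ± 14.2 and 79.5 ± 6.94 CPM. With each distinct sequence counted once, only 1 of the 3 plexins, Plxna2, passed. With median coverage 8 of these genes were tested, and 3 of the 4 ligands and 2 of the 3 plexins passed in the same directions.

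Of 18 angiopoietins and other regulators of vessels, most of them secreted, 10 were tested, 4 rose and 3 fell, with a median log2 fold change of 0.17. That is 70% of those tested, against 46.1% of all genes. Angpt1, the gene of the ligand that activates the endothelial receptor TIE2, rose from 4.01 ± 0.986 to 82.7 ± 13.8 CPM (SD, n = 3 each, log2 fold change 4.35). Angpt2, the gene of a ligand that mostly opposes it, fell from 14.9 ± 0.763 to 2.93 ± 0.620 CPM (log2 fold change -2.40). Serpinf1 (2.11), Angptl4 (1.28) and Spred1 (0.36) also rose, and Apln (-1.45) and Angptl2 (-0.42) also fell. Serpinf1 codes for an inhibitor of vessel growth and Spred1 for an inhibitor inside the cell, not for ligands that promote vessels.

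Markers of other cell types were counted beside these genes because the VEGF receptors are mostly endothelial, and their counts stand against the 46.1% of all genes tested that passed, 23.8% higher and 22.3% lower. Of 15 endothelial markers 10 had reads, 5 were tested, 2 fell and 0 rose, their sum was 14.7 to 22.6 CPM in CD24- and 9.93 to 13.03 CPM in CD24+ libraries, and Emcn, Cldn5, Robo4, Sox17 and Sox18 were at 0. Egfl7, the most abundant of them, also made by other cells, fell from 10.8 ± 3.96 to 6.68 ± 0.767 CPM (SD, n = 3 each, log2 fold change -0.72). It passed narrowly (Benjamini-Hochberg adjusted p = 0.0417, edgeR). Its groups overlapped, since CD24- replicate 3 had 6.51 CPM and CD24+ replicates 1, 2 and 3 had 7.38, 5.86 and 6.79 CPM. The other one that fell was Cdh5, the gene of the endothelial adhesion protein VE-cadherin, from 1.84 ± 0.373 to 0.247 ± 0.195 CPM (log2 fold change -3.23, 62 reads in all libraries). Of 5 lymphatic markers only Reln had reads, which fell (log2 fold change -2.14), and Prox1, Lyve1, Ccl21a and Mmrn1 were at 0. Of 10 macrophage and leukocyte markers 8 had reads and 3 were tested, 2 fell and 0 rose, with a sum of 77.1 to 114 CPM against 32.6 to 43.6 CPM, mostly Cd68 and Cd14. Cd68 and Itgam were the ones that fell, and Itgam, the gene of a myeloid integrin, went from 3.82 ± 0.592 to 0.0174 ± 0.0302 CPM (SD, n = 3 each). Cdh5, Reln and Itgam lay below 1 CPM in the CD24+ libraries and passed the filter on low counts only through the CD24- libraries. Their direction was thus largely set by the filter. Ptprc and Csf1r had 2 and 6 reads in all libraries. All 5 tested of 8 fibroblast markers rose by edgeR, and 4 by DESeq2, with a sum of 9.43 to 25.3 CPM against 109 to 196 CPM, mostly Col3a1 (log2 fold change 3.70), and all 3 tested of 10 epithelial markers fell, with a sum of 1841 to 2033 CPM against 757 to 901 CPM. The counts of 0 among these markers are from edgeR and were also 0 at an unadjusted p below 0.05 and by DESeq2. The sums of the endothelial, lymphatic, macrophage and epithelial markers were lower in CD24+ cells, as Flt1 was. The fibroblast sum was higher, as Vegfc, Vegfa and Nrp2 were. Tek, Esam, Eng and Cd14 were tested and did not pass. The part of these cell types in the differences of the VEGF genes was not tested.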

How the data were processed

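Polyadenylated RNA of 6 libraries was sequenced, and per the study's methods the authors trimmed 51-nt reads by 2 nt at each end, collapsed identical reads, placed each distinct 47-nt sequence on the genome where it matched without a mismatch, and assigned 1 annotation to it. The authors deposited the raw count of every sequence in each library, without normalization. The submitters' processing notes name the build mm9, and for the mapping tool and annotation source nothing is stated in the sources used here.

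Counts were summed per gene annotation (12642 of 15017 are current symbols, 1790 synonyms). Repeats (5.93% to 7.83% of reads), small RNA (1.00% to 3.74%) and reads without annotation (16.9% to 20.2%) were left out. An annotation called Nrp names another gene and was not counted. The quasi-likelihood test of edgeR 4.0.16 was run in R 4.3.3 after filterByExpr and TMM scaling (Benjamini-Hochberg over all genes, threshold 0.05), and 95% intervals use the t distribution of that test. The code was tested on simulated data.

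Member reads were matched to GENCODE M21 transcripts (GRCm38), which gave all coordinates and sequences printed here. Of these reads about the same number lay on each strand (50.0% on the gene's own strand for Vegfa), so overlapping genes cannot be separated. Ratios of gene parts were compared with exact permutation tests over libraries. Alternatives were DESeq2 1.42.0, RLE scaling, no TMM, other low-count filters, each sequence counted once, reads of 1 GENCODE gene only, an estimate built on the study's median coverage (quantile normalization, regularizer of 10, limma 3.58.1), the replicate number as a block, and leaving out each library. Within each group, counts of any 2 libraries differed beyond sampling noise. The chi-square per degree of freedom was 1.71 between CD24- replicates 1 and 2 and 9.63 to 15.5 for the other pairs, so CD24- replicates 1 and 2 were much alike and CD24- replicate 3 stood apart from both, and all libraries were kept as replicates.

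The genes, lists and tests were chosen with earlier results of these data known. Named genes are all members, Cd24a, the largest called increase and decrease of each list (mean log2 CPM of 3 or more), and the 3 genes nearest to the most abundant ligand and to the most abundant receptor or co-receptor by CPM. Of the 6 ratios, all but that of Vegfa coding to 3' untranslated density were chosen after seeing the data. One gene that this rule names is not reported here.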

Additional observations from a re-analysis of the deposited data

How the results depend on the processing

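Of 292 recomputed values, 272 stayed alike. For tested values this means the same direction and side of the threshold, for counts within 1.5 times, and for ratios, which have no test here, a move of less than 1 SD between replicates. Leaving out 1 of 3 libraries cannot move a group mean by 1 SD, so ratios with a library left out could only stay alike. The filter of at least 1 CPM in 3 libraries kept the same 11198 genes, so its values repeat the main test and could only stay alike. Vegfa, Vegfc, Flt1 and Nrp2 passed under every alternative run, with log2 fold changes of 0.57 to 1.06, 0.46 to 3.26, -0.91 to -0.35 and 0.44 to 0.78. The lowest sizes came from median coverage, with quantile normalization, a regularizer of 10 and limma, whose parts cannot be told apart here. The regularizer is added to median coverage and by construction shrinks the values of genes with low coverage. Nrp2, the most abundant member by CPM, went from 0.68 to 0.44, and the part of the regularizer in this was not tested. Pgf lost its call under 9 of its alternatives. Figf gained one with reads of a single GENCODE gene (log2 fold change 0.46), with median coverage (0.16) and without CD24- replicate 3. Vegfb went from -0.08 to between -0.22 and 0.037 when 1 library was left out, and 0.037 was the value without CD24- replicate 1 (adjusted p = 0.862, edgeR). The genes of oxygen sensing that passed were 5 in the main test, 2 with each sequence counted once, and 3 to 4 when 1 library was left out. With median coverage, 3 genes of ligand processing and 4 of the angiopoietin list passed, against 6 and 7, with fewer of them tested (10 of 13 and 6 of 10). The causes of these moves were not tested. The log2 difference of the Vegfa ratio of 5' to 3' untranslated density moved from -0.18 to 0.05 with each sequence counted once. Left-out libraries moved the difference of the Flt1 soluble ratio between 0.55 and 0.79 that of the Nrp2 ratio between 0.46 and 0.58, and that of the Vegfa exon 7 ratio between -1.39 and -0.57.

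Replicates with the same number did not deviate together (correlations 0.01, -0.25 and -0.31), so the numbers do not pair the plates. With the replicate number as a block, 4522 genes passed in place of 5164, and 4 of the VEGF genes in place of 5, since Pgf gave an adjusted p of 0.0535. Over all genes, the counts ranged from 3616 to 5526 under the alternatives. Depth limits Kdr, Flt4, Pgf and Vegfa exon 6, which rested on few reads.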
